A study of Rattus norvegicus with 21 samples.

Results

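The response to phenylephrine (PE) of neonatal rat ventricular myocytes (NRVMs) after knockdown of Klf2 was described from 4 of the 21 libraries of the series. The libraries were chosen by their labels, as 2 siKlf2 libraries with PE (replicates 1 and 2) and 2 siKlf2 libraries without PE (replicates 1 and 2). NRVMs are primary heart muscle cells from newborn rats, kept in culture. All 4 cultures received a small interfering RNA against Klf2 (siKlf2) 12 h before the time at which PE was added. Both groups share this treatment, though the time from it to harvest may differ. PE was given at 100 µM for 36 h. The groups with and without PE rest on the sample titles, because the treatment entry of the labels names PE for every RNA library, the resting ones included. A further entry marks the libraries with PE as 36 h and those without PE as 0 h, whereas the treatment protocol speaks of cells with and without PE over the same period. If the resting cells were harvested at 0 h, PE, time in culture and time since the siRNA cannot be told apart. The control arm of the same experiment, set beside the siKlf2 arm below, holds 2 libraries of cells with a negative control RNA (siNeg) and PE and 2 with siNeg and no PE. A further control arm comes from a separate experiment with 3 libraries of cells carrying a green fluorescent protein adenovirus and PE (AdGFP with PE) and 3 with the same virus and no PE (AdGFP).

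PE is an agonist of α1-adrenergic receptors. In cardiomyocytes these receptors act through Gq proteins and phospholipase C, with protein kinase C and calcium signals downstream, and their sustained stimulation is a standard model of hypertrophic growth, in which cells enlarge, synthesise more protein and return to parts of a fetal expression programme. KLF2 is a zinc finger transcription factor of the Krüppel-like family, best known for holding endothelial cells in a quiescent state.

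The 4 siKlf2 libraries held 187976317 to 206306054 counts. Replicates correlated at 0.999 in log2 CPM across genes in both groups. Among genes with enough counts, 40.2% in siKlf2 with PE and 39.0% in siKlf2 differed between replicates by more than counting noise, where such noise alone gives about 5%. With counts halved, to allow for both mates of a fragment having been counted, the shares were 25.3% in siKlf2 with PE and 24.2% in siKlf2. Among the control groups of the same experiment, siNeg with PE had the largest share of all, 52.6% (38.9% with counts halved), against 34.2% (19.5%) in siNeg. Levels are given in CPM, a gene's count relative to the library total after scaling with the library's TMM factor, which sets the bulk of genes level between libraries, with no correction for gene length. The deposited tables list genes by Ensembl ID alone and none of the 30560 IDs could be paired with a symbol here. The level of Klf2 itself, and the markers of myocytes and of other cell types, were therefore not analysed here, and neither the knockdown nor the cell type was checked. In a bulk culture, fewer cells of a type and less RNA per cell cannot be told apart. Nothing in the labels says that replicates were separate cell preparations. The p-values therefore reflect the spread among these libraries and that spread may be technical.

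Many genes differed between siKlf2 cells with and without PE. Of 18173 tested genes, 1069 rose at least 1.5-fold and 1426 fell as much, at an adjusted p under 0.05 in edgeR's quasi-likelihood test with Benjamini-Hochberg adjustment (5.88% and 7.85% of the tested genes). All 1069 genes that rose were higher in each of the 4 pairings of a library with PE and a library without, and 1425 of the 1426 genes that fell were lower in each. In 859 of the rises and 1038 of the falls every pairing reached a fold of 1.5. The genes were called from these same libraries, so this agreement describes the calls and does not test them. No listed gene went between 0 counts in both libraries of one group and 0.1 CPM or more in both libraries of the other.

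Of the 6034 called genes that averaged 10 CPM or more in the siKlf2 libraries, the 2 with the largest rise and the 2 with the largest fall are followed by their IDs. They were picked for their response in siKlf2, so that response is a description. ENSRNOG00000005964 lay at 20.4 and 19.8 CPM in siKlf2 with PE, against 2.87 and 2.52 CPM in siKlf2. The 2 groups did not overlap, and the level with PE was 7.44-fold higher (log2 fold change 2.89, SE 0.079, edgeR adjusted p = 2.76e-10). ENSRNOG00000015904 lay at 79.6 and 68.2 CPM in siKlf2 with PE, against 9.53 and 10.5 CPM in siKlf2. It was 7.38-fold higher with PE (log2 fold change 2.88, SE 0.08, edgeR adjusted p = 2.91e-10), and again both libraries with PE stood far above both without. The next gene in this order had a log2 fold change of 2.81 and the twelfth one of 2.03, so the top of the list of rises was closely spaced.

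The falls had 1 gene well ahead of the rest. ENSRNOG00000006151 lay at 12.6 and 11.6 CPM in siKlf2 with PE, against 314 and 348 CPM in siKlf2. Its level with PE was 27.4-fold lower (log2 fold change -4.78, SE 0.156, edgeR adjusted p = 9.3e-10), and the libraries of each group were close to one another. ENSRNOG00000017716 lay at 3.36 and 3.47 CPM in siKlf2 with PE, against 28.5 and 28 CPM in siKlf2, and was 8.27-fold lower (log2 fold change -3.05, SE 0.053, edgeR adjusted p = 4.41e-11). The third gene in this order had a log2 fold change of -2.92 and the twelfth one of -2.06.

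The same 4 genes responded in the same direction in control cells, with different sizes. ENSRNOG00000005964 lay at 10.9 and 9.84 CPM in siNeg with PE, against 1.94 and 1.94 CPM in siNeg, which is 2.41 on the log2 scale (SE 0.08, edgeR adjusted p = 1.48e-09). ENSRNOG00000015904 lay at 32.1 and 35.6 CPM in siNeg with PE, against 11.6 and 11.1 CPM in siNeg, which is 1.58 on the log2 scale (SE 0.077, edgeR adjusted p = 2.5e-08). Resting levels of the second gene were alike in both arms, at 10 ± 0.67 CPM in siKlf2 and 11.3 ± 0.33 CPM in siNeg (SD, n = 2 each), and the arms parted with PE. ENSRNOG00000006151 lay at 15.1 and 22.9 CPM in siNeg with PE, against 102 and 110 CPM in siNeg, which is -2.48 on the log2 scale (SE 0.141, edgeR adjusted p = 7.46e-08). ENSRNOG00000017716 lay at 3.09 and 3.03 CPM in siNeg with PE, against 14.8 and 14.8 CPM in siNeg, which is -2.27 on the log2 scale (SE 0.052, edgeR adjusted p = 1.01e-10). For both falling genes the arms lay closer together with PE than at rest, where siKlf2 was higher.

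**Figure D1:**
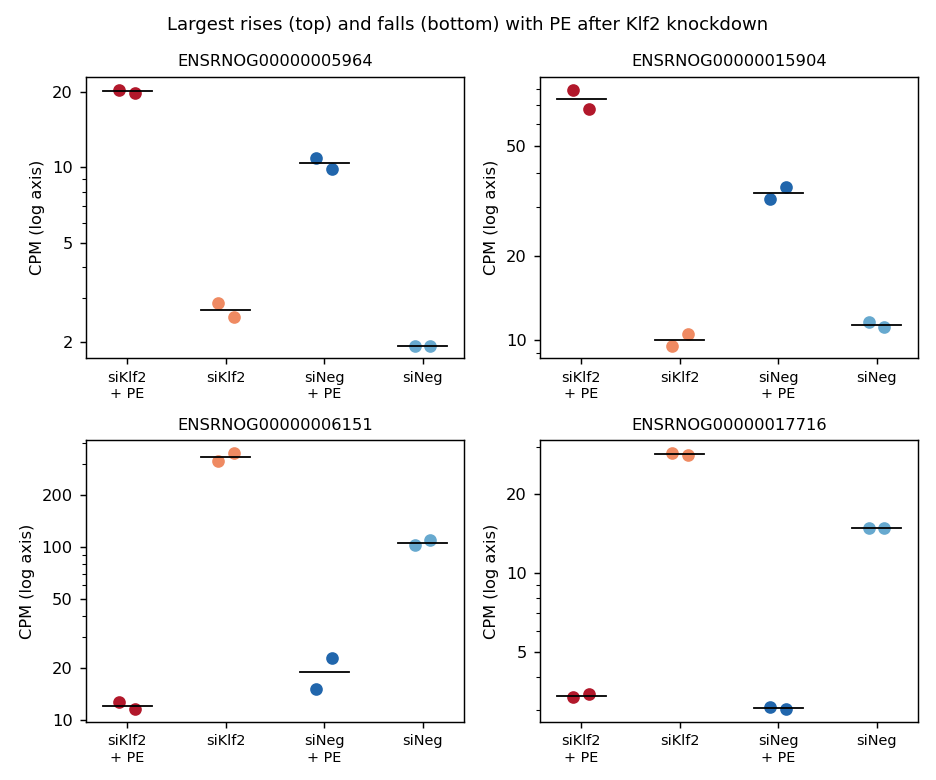
CPM (log axis) of the 2 genes with the largest rise and the 2 with the largest fall with PE after Klf2 knockdown, in siKlf2 with PE, siKlf2, siNeg with PE and siNeg; points are libraries and bars are means of 2. ENSRNOG00000015904 starts from like levels in both arms and reaches 73.9 CPM in siKlf2 with PE and 33.8 CPM in siNeg with PE, whereas ENSRNOG00000006151 starts at 331 CPM in siKlf2 and 106 CPM in siNeg and ends at 12.1 CPM in siKlf2 with PE and 19 CPM in siNeg with PE.

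Whether the PE response itself differed after knockdown was tested for each gene as the response in siKlf2 minus that in siNeg. If the resting cells were harvested at 0 h, this difference also holds any change of the knockdown effect with time. The response of ENSRNOG00000015904 was larger by 1.31 on the log2 scale in siKlf2 (SE 0.109, edgeR adjusted p = 2.72e-05). Its value ranged over 1.20 to 1.43 as each of the 8 libraries was left out in turn. ENSRNOG00000006151 fell further in siKlf2 (log2 difference -2.29, SE 0.197, edgeR adjusted p = 3.32e-05), and so did ENSRNOG00000017716 (log2 difference -0.78, SE 0.073, edgeR adjusted p = 5.51e-05). The difference of 0.48 for ENSRNOG00000005964 (SE 0.111, edgeR adjusted p = 0.0143) was the least secure. It lost its call without siNeg replicate 2 (0.48, adjusted p = 0.0522), without siKlf2 replicate 2 (0.39, adjusted p = 0.0616) or without siKlf2 with PE replicate 1 (0.47, adjusted p = 0.0571). Because these genes were picked as the extremes of the siKlf2 response, a larger response in siKlf2 than in siNeg is partly built into the choice.

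In the AdGFP experiment, which shares no library with the knockdown experiment, each of the 4 genes also moved in the same direction with PE. The log2 fold changes were 1.69 for ENSRNOG00000005964 (SE 0.25), 2.42 for ENSRNOG00000015904 (SE 0.104), -1.23 for ENSRNOG00000006151 (SE 0.165) and -4.01 for ENSRNOG00000017716 (SE 0.358, with 5 to 14 counts a library in AdGFP with PE), with edgeR adjusted p of 3.34e-05 or less. The 3 AdGFP libraries without PE correlated with each other at 0.987 to 0.988, lower than the 0.995 of AdGFP with PE and the 0.999 of the siKlf2 groups. All comparisons with AdGFP rest on them, since no other library holds that condition.

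The direction of the response depended on the level of a gene. Among genes with a mean of 100 CPM or more over the siKlf2 libraries, 227 rose and 73 fell of 2046 tested. At 10 to 100 CPM the numbers were nearly balanced, with 311 higher and 343 lower of 6906. At 1 to 10 CPM 267 rose and 445 fell of 3662, and at 0.1 to 1 CPM 223 rose and 466 fell of 3469. The lowest class, under 0.1 CPM, gave 41 rises and 99 falls of 2090. The median log2 fold change followed the same order, at 0.11 in the highest class, 0.02 at 10 to 100 CPM, -0.08 at 1 to 10 CPM, -0.12 at 0.1 to 1 CPM and -0.17 in the lowest class. In siNeg cells falls likewise outnumbered rises in each class below 100 CPM, and at 100 CPM or more 166 rose and 68 fell of 1888.

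**Figure D2:**
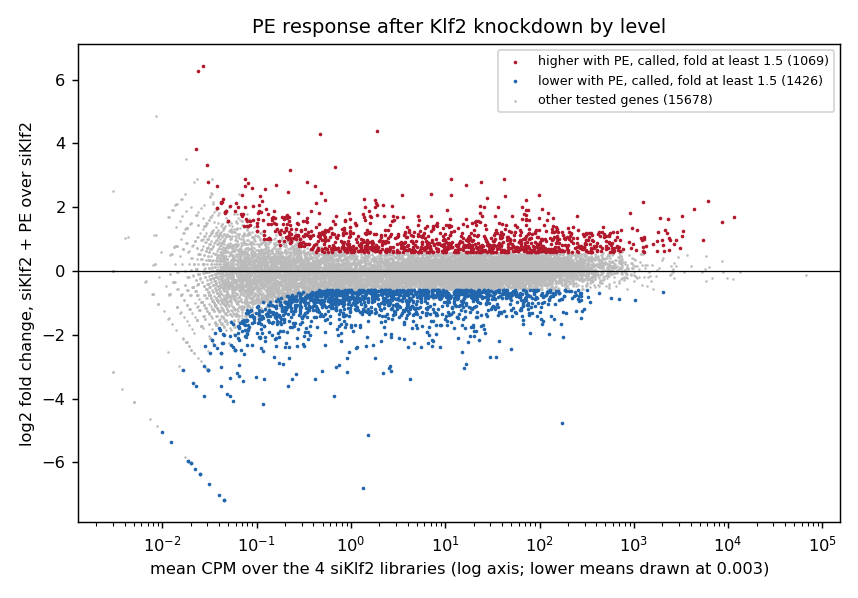
Log2 fold change of each tested gene, siKlf2 with PE over siKlf2, against its mean CPM over the 4 siKlf2 libraries (log axis); red and blue points are the 1069 genes higher and the 1426 genes lower with PE at least 1.5-fold. Above 100 CPM red points outnumber blue ones. Most of the steepest falls lie at low levels, though 2 of the 48 genes that fell at least 8-fold averaged 10 CPM or more.

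**Figure D3:**
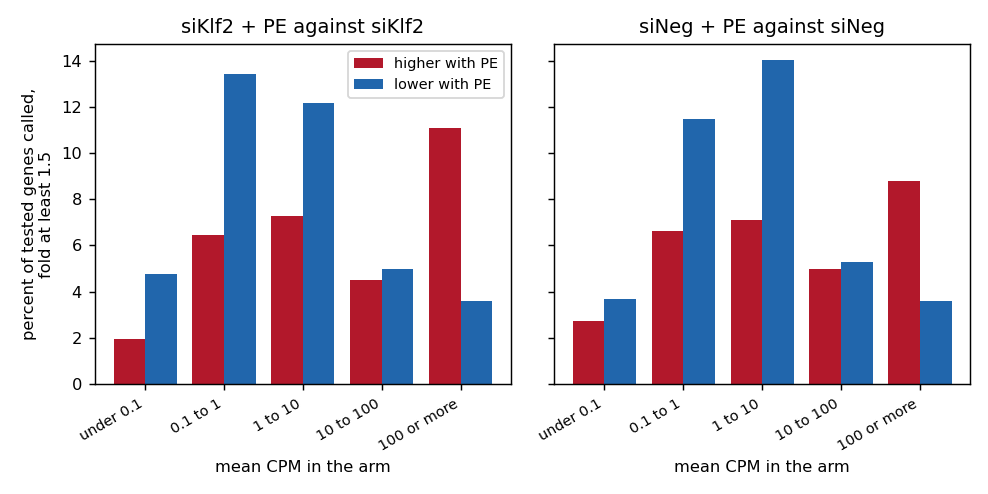
Percent of tested genes called higher (red) or lower (blue) with PE at least 1.5-fold, by class of mean CPM, in siKlf2 on the left and siNeg on the right. In siKlf2 the class of 100 CPM or more has 11.1% higher and 3.57% lower, and the class of 0.1 to 1 CPM has 6.43% higher and 13.4% lower.

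The split between rises and falls depended on the scaling. TMM factors were 0.871 and 0.87 in siKlf2 with PE and 0.99 and 0.969 in siKlf2. With library totals alone the median log2 fold change of all tested genes was -0.19 instead of -0.02. At least 1.5-fold, 686 genes were then called higher and 2391 lower, so 22.3% rather than 42.8% of the calls were higher. The same change of scaling moved the share of higher calls to 28.6% from 42.6% in siNeg and to 28.9% from 45.5% in AdGFP. At 100 CPM or more, 138 were higher and 134 lower under that scaling, which ends the excess of rises. At 10 to 100 CPM, 196 were then higher and 639 lower, so the near balance of that class was lost, and the excess of falls below 10 CPM grew. Changes of each gene are therefore relative to the bulk of expressed genes, and total RNA per cell was not measured.

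The share of all counts held by a list of genes does not use these factors, but the lists themselves were chosen with them. The 1069 genes that rose in siKlf2 held 20.1% and 19.8% of all counts in siKlf2 with PE, against 10.5% and 10.4% in siKlf2. The replicates lay close together and the groups far apart. About 43% of that gain came from 10 genes, which held 6.58% and 6.49% of counts in siKlf2 with PE and 2.47% and 2.44% in siKlf2. In control cells the same 1069 genes held 13.7% and 13.7% of counts in siNeg with PE and 7.4% and 7.43% in siNeg. The 1426 genes that fell held 1.84% and 1.84% in siKlf2 with PE, against 3.86% and 3.91% in siKlf2. The genes were chosen by this response in siKlf2, so the shares describe its size and do not test it. In the list chosen instead in siNeg cells, 1074 genes that rose there, the share was 17.3% ± 0.14 in siKlf2 with PE, 9.05% ± 0.14 in siKlf2, 12.5% ± 0.04 in siNeg with PE and 6.17% ± 0.01 in siNeg (SD, n = 2 each). With either list the share was largest in siKlf2 with PE, and it was higher in siKlf2 than in siNeg cells both with and without PE.

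**Figure D4:**
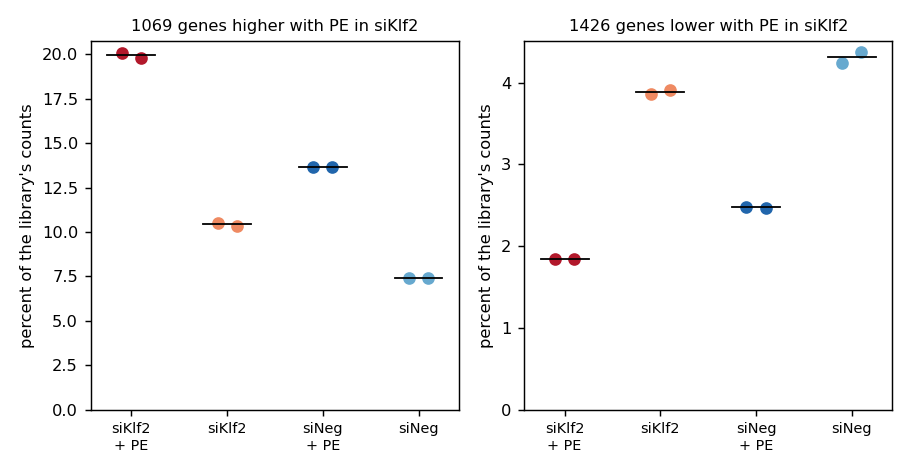
Percent of each library's counts held by the genes called higher (left) and lower (right) with PE in siKlf2, in siKlf2 with PE, siKlf2, siNeg with PE and siNeg; points are libraries and bars are means of 2. The rising genes take 19.9% of counts in siKlf2 with PE, 10.4% in siKlf2, 13.7% in siNeg with PE and 7.41% in siNeg.

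Fewer genes were seen at all in siKlf2 with PE. Genes with at least 10 counts numbered 16840 and 16996 in siKlf2 with PE and 17310 and 17309 in siKlf2, and 17760 and 17663 in siNeg with PE and 17837 and 17656 in siNeg. The 2 libraries of siKlf2 with PE lay below the other 6 libraries. Their totals of 187976317 and 205898676 counts were within the range of the others, but the totals multiplied by the TMM factors were 163636717 and 179069104 in siKlf2 with PE, against 199978002 to 237303279 in the other 6. The part of this lower effective depth in the number of genes seen was not tested. Most of the steepest falls lay among genes of very low level. At least 4-fold, 58 genes rose and 137 fell in siKlf2 (0.319% and 0.754% of tested genes), and at least 8-fold, 8 rose and 48 fell (0.044% and 0.264%). The 48 genes that fell at least 8-fold had a median of 0.00751 CPM in siKlf2 with PE and 0.0961 CPM in siKlf2. At about 1 or 2 counts in a library, the fitted fold depends on the prior count of the fit and is no bound. Among genes averaging 10 CPM or more, 14 rose and 14 fell at least 4-fold, and the falls of ENSRNOG00000006151 and ENSRNOG00000017716 were the 2 changes of at least 8-fold. In siNeg cells 78 genes rose and 77 fell at least 4-fold (0.429% and 0.424%). The gap between the 137 falls of siKlf2 and the 77 of siNeg narrowed when either library of siNeg with PE was left out, with siKlf2 still the larger. The size of this gap was not secure, and the difference between these 2 counts was not tested.

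The siKlf2 and siNeg responses had most of their changes of at least 1.5-fold in common. Of the 1069 genes that rose at least 1.5-fold in siKlf2, 619 rose as much in siNeg, which is 57.9% of the siKlf2 list and 57.6% of the 1074 in siNeg, where 5.91% of tested genes rose. Of the 1426 that fell, 850 fell in siNeg too, 59.6% of the siKlf2 list and 58.7% of the 1449 in siNeg, where 7.97% fell. Of 1473 genes called at this fold in both arms, 1469 moved the same way. The fold changes of the arms, which share no library, had a Spearman correlation of 0.649 over all 18173 tested genes and 0.820 over the 9026 that averaged 10 CPM or more, where counting noise is smaller. Against AdGFP, 534 genes rose in both, 53.4% of the 1000 siKlf2 genes tested in both tables and 52.5% of 1017 in AdGFP, and 553 fell in both, 42.5% of 1301 and 45.1% of 1226. Of all tested genes, 6.35% rose and 7.6% fell by this fold in AdGFP.

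**Figure D5:**
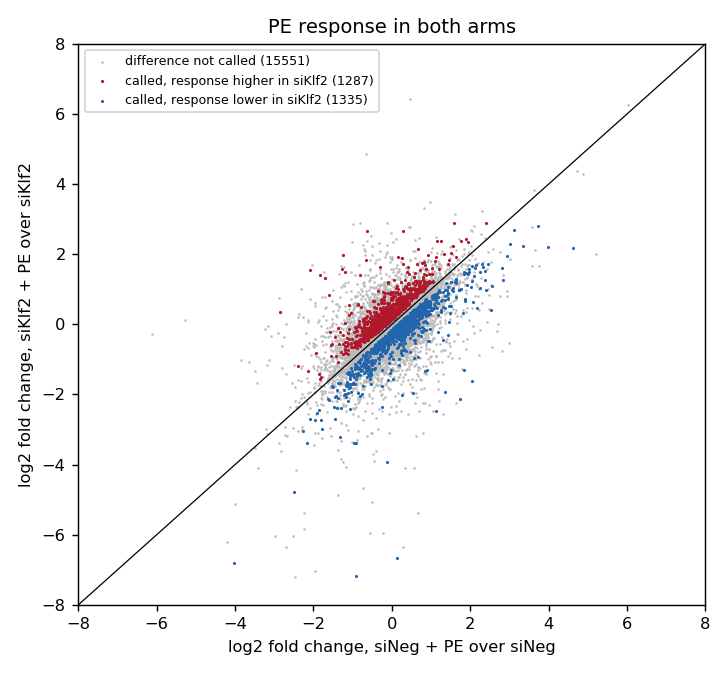
Log2 fold change with PE in siKlf2 (vertical) against that in siNeg (horizontal) for 18173 tested genes; the line marks equal responses, and red and blue points are the genes whose response was called higher (1287) or lower (1335) in siKlf2. The fold changes of the arms had a Spearman correlation of 0.649, and called genes lie on both sides of the line. The sides were uneven at some ends of the range. Of 137 genes that fell at least 4-fold in siKlf2, 0 had a response called higher and 33 lower. Of 77 that fell as much in siNeg, the numbers were 4 and 5. For rises of this fold they were 13 and 6 of 58 in siKlf2, and 1 and 28 of 78 in siNeg. Choosing a list in an arm tilts its counts towards that arm.

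The response was called different between the arms for 2622 genes, 14.4% of those tested, with 1287 higher (7.08%) and 1335 lower (7.35%) in siKlf2. Differences of at least 1.5-fold numbered 202 higher (1.11%) and 245 lower (1.35%). With library totals alone 24.2% rather than 49.1% of the called differences were higher. The number of calls was 1739 and 1553 without siNeg replicate 1 and replicate 2, 1669 without siKlf2 replicate 1 and 1685 without siKlf2 with PE replicate 1. The size of the response in siKlf2 was set beside that in siNeg through lists taken from AdGFP, whose choice used neither arm. For the 1017 genes at least 1.5-fold higher with PE in AdGFP, the median log2 response was 0.64 in siKlf2 (quartiles 0.36 and 0.99) and 0.62 in siNeg (quartiles 0.36 and 0.96). Their response was called higher in siKlf2 for 161 and lower for 180. The 1226 genes lower with PE in AdGFP had medians of -0.56 in siKlf2 (quartiles -0.93 and -0.30) and -0.64 in siNeg (quartiles -0.93 and -0.39). Of these, 121 were called higher and 118 called lower in siKlf2. Medians over all tested genes were -0.02 in both arms.

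Called differences could be larger or smaller responses in the same direction. Of the 1069 genes that rose in siKlf2, the response was called larger than in siNeg for 278 and smaller for 98, and 693 had no called difference. Of the 1426 that fell in siKlf2, the fall was called larger for 273 and smaller for 28. Seen from the genes chosen in siNeg, the picture turned round for the rises: of 1074, 275 rose less in siKlf2 and 92 rose more. Each list was chosen in 1 of the arms compared, which tilts its counts towards that arm. For the 1449 falls of siNeg the counts were more even, with 167 that fell less in siKlf2 and 125 that fell more.

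Over all tested genes, most calls in only one arm came without a called difference between the arms, and how often one was called varied with the level of the genes. Of all tested genes, 7.08% had a response called higher in siKlf2 and 7.35% one called lower. Of 218 genes that rose at least 1.5-fold in siKlf2 with no call in siNeg, 49 had a called difference, and of 336 that fell in siKlf2 with no call in siNeg, 39 did. In the other direction, 38 of 214 rises and 54 of 378 falls of siNeg with no call in siKlf2 had a called difference. Among genes averaging 10 CPM or more over the 8 libraries of the experiment, few were called in only one arm, and most of those had a called difference except among the falls of siNeg. These were 10 of 14 rises and 8 of 9 falls of siKlf2 with no call in siNeg, and 13 of 13 rises and 7 of 15 falls of siNeg with no call in siKlf2. With no minimum fold, where 48.1% of tested genes were called in siKlf2 and 49.1% in siNeg, 252 genes were called in opposite directions, 137 of them higher with PE in siKlf2 and lower in siNeg and 115 the reverse. All 252 had a called difference, which calls in opposite directions in both arms largely ensure. Their changes were small, with median sizes of 0.21 in siKlf2 and 0.22 in siNeg on the log2 scale.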

How the data were processed

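The RNA of NRVMs was sequenced. The tools, per the submitters' processing notes, were Trim Galore, STAR and featureCounts with build mRatBN7.2, and versions are not given in the sources used here. The authors deposited raw counts by Ensembl gene ID (30560 IDs a table), with library totals of 181101876 to 224082309 for knockdown and 32693762 to 76138723 for overexpression. In the siKlf2 libraries 60.1% to 63.1% of the counts between 1 and 20 were even, so that both mates of a fragment may have been counted. No strand setting is stated, so overlapping genes may share reads.

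The tests used edgeR 4.0.16 (R 4.3.3), with filterByExpr (minimum count 10, minimum total 15), TMM scaling and 1 quasi-likelihood fit per table, in which all its groups share the spread. This kept 18173 knockdown genes and 16153 overexpression genes. Two-sided p-values were adjusted over all tested genes (Benjamini-Hochberg), and calls are adjusted p under 0.05. SE is the log2 change divided by the root of its F statistic. On simulated data over 18173 genes with the design of PE in siKlf2, 72% of 100 genes changed 1.5-fold and 77% of 100 changed 2-fold were recovered. False calls were 5.1%. Only these 200 genes changed there, whereas 8743 were called in the data, so the rates need not hold for the data. Alternatives were RLE factors, library totals alone, no filter, only genes averaging 10 CPM or more, DESeq2 1.42.0, a replicate block, the 4 siKlf2 libraries alone, counts halved and leaving out each library. Python 3.11.15 (numpy 2.4.6, pandas 2.3.3, scipy 1.17.1) made the summaries and matplotlib 3.10.9 the figures.

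Comparisons, lists and rules were chosen with earlier results of these data known. IDs are named by rank of fold change among called genes averaging 10 CPM or more in siKlf2. Since 0 IDs matched the RefSeq tables used here, this rule lost its condition on symbols and was limited to 2 genes a direction after the values were seen, and gene and marker lists by symbol were not run. CUT&Tag peaks were not used here.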

Additional observations from a re-analysis of the deposited data

Results flagged for a closer look

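The response to PE differed between siKlf2 and siNeg cells by the test of the difference itself for 2622 genes. Among the genes followed by ID, the log2 difference, siKlf2 minus siNeg, was 0.48 for ENSRNOG00000005964, 1.31 for ENSRNOG00000015904, -2.29 for ENSRNOG00000006151 and -0.78 for ENSRNOG00000017716. The first lost its call in 3 of the 8 fits that left out a library.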

How the results depend on the processing

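In the alternatives that tested them, the 4 named IDs and the list medians kept their sign, and the PE responses of these IDs in siKlf2 kept their call. ENSRNOG00000005964 averages under 10 CPM over the 8 libraries and was not tested in the alternative limited to higher levels. With library totals alone, genes changed at least 1.5-fold were 686 higher and 2391 lower in siKlf2, 368 differences of at least 1.5-fold were lower in siKlf2, against 245 with TMM, 1356 genes fell in both siKlf2 and siNeg, and the medians of genes raised and lowered in AdGFP were 0.47 and -0.73 in siKlf2 and 0.52 and -0.74 in siNeg. Testing only genes averaging 10 CPM or more left fewer genes, with 522 higher and 440 lower at least 1.5-fold and 12 and 17 at least 4-fold in siKlf2, 530 and 426 and then 20 and 10 in siNeg, 80 higher and 111 lower differences of at least 1.5-fold, against 202 and 245 with all tested genes, overlaps of 349 and 294 with siNeg and of 244 falls with AdGFP, and medians of 0.67 and -0.61 in siKlf2 and 0.68 and -0.68 in siNeg. Called differences of any size were 2541 in that alternative, against 2622. For the raised genes the order of the arms in these 2 alternatives was the reverse of that with TMM over all tested genes. It was also reversed without siNeg replicate 1 (0.639 in siKlf2, 0.642 in siNeg) and without siNeg with PE replicate 1 (0.640 in siKlf2, 0.646 in siNeg). The remaining alternatives fitted in both arms kept the order. The median of raised genes in siKlf2 was 0.66 with RLE factors and 0.66 with DESeq2. With no minimum fold the overlaps were 3352 and 3041 with siNeg and 2286 and 1911 with AdGFP. Leaving out 1 library gave 1553 to 3312 called differences, 81 to 122 falls of at least 4-fold in siNeg, medians of 0.64 to 0.67 and -0.58 to -0.53 in siKlf2 and of 0.63 to 0.65 and -0.65 to -0.62 in siNeg, where a lone library was taken to vary like the other groups. The labels do not say whether same-numbered libraries were prepared together, and correlations of their deviations were -0.105 to 0.202. The replicate block gave 8726 called genes for PE in siKlf2, against 8743 without it, and changed no call of a named ID. Depth limits the folds of genes near 0 counts, which rest on very few reads.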
